A study of Mus musculus with 3 samples.

Results

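A subset of nitrergic neurons was described by cells that had *Nos1* above 0, at least 3 of the 7 genes *Aldh1a3*, *Npy*, *Gng8*, *Rprml*, *Tmod1*, *Dok5* and *Lmo2* above 0, and *Cartpt* below 2.5 in the deposited units. A UMI is 1 counted RNA molecule, and the deposited value is the natural log of 1 plus a gene's UMIs per 10000 UMIs in that cell. The members were thus chosen by the measured values of these 9 genes. Of 2060 deposited neurons, 304 were members, out of 1065 cells with *Nos1*. The cells came from 3 libraries, 1 per mouse. All mice were *Ednrb*-KO animals (*Ednrb*-/-, a model of Hirschsprung disease) at postnatal day 14, labelled as C57BL/6 although the *Ednrb* line came from a stock of mixed background, and all carried *Wnt1*-Cre and a Cre-dependent tdTomato reporter, so that cells of the neural crest lineage were red. tdTomato-positive cells were sorted from the muscle layers and myenteric plexus of the small intestine, where ganglia are still present in this model. There is 1 condition, no wild-type library was used here, and every comparison below is between cells of the same mouse.

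Nitrergic neurons make nitric oxide with neuronal nitric oxide synthase, which *Nos1* encodes, and relax the muscle of the gut. The synthase uses arginine and needs tetrahydrobiopterin, and arginine can be remade from the citrulline it releases. Many inhibitory enteric neurons also hold the peptides VIP, galanin and neuropeptide Y, and excitatory neurons release acetylcholine.

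Of the rule's genes, *Nos1* lies at chr5:117781032-117958840 (positions of genes are those of GENCODE M21 on GRCm38). *Aldh1a3*, at chr7:66390890-66427517, encodes an enzyme that makes retinoic acid. *Npy*, at chr6:49822710-49829507, encodes neuropeptide Y. *Gng8*, at chr7:16891786-16895436, encodes a gamma subunit of G proteins. *Rprml*, at chr11:103649570-103650579, encodes a reprimo-like protein. *Tmod1*, at chr4:46038935-46116032, encodes tropomodulin, which caps actin filaments. *Dok5*, at chr2:170731807-170879769, encodes an adaptor of receptor tyrosine kinases. *Lmo2*, at chr2:103957986-103981878, encodes a LIM-only partner of transcription factors. *Cartpt*, at chr13:99898489-99901091, encodes the precursor of the CART peptide.

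RefSeq promoters, 250 bases before to 50 bases after the start, were held for 6 of these 9 genes on GRCm38.p6. The windows shown are those of the 4 program genes among the 6, since the members are defined by these genes. All 4 read on the plus strand, at chr6:49822460-49822759 for *Npy*, chr7:16891536-16891835 for *Gng8*, chr11:103649259-103649558 for *Rprml* and chr4:46038972-46039271 for *Tmod1*. Capitals mark GGGCGG, the letters of a GC box, on either strand.
Npy: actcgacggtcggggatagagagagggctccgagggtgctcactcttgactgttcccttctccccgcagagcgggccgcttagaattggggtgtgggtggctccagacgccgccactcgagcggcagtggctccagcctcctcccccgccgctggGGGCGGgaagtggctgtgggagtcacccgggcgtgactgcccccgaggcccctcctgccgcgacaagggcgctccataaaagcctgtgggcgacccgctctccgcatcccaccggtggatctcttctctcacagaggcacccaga
Gng8: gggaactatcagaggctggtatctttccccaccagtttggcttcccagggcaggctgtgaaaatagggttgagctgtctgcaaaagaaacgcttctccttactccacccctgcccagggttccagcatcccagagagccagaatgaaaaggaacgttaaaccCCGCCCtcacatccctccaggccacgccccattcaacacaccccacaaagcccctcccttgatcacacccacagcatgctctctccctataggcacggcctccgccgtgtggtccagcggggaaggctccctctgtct
Rprml: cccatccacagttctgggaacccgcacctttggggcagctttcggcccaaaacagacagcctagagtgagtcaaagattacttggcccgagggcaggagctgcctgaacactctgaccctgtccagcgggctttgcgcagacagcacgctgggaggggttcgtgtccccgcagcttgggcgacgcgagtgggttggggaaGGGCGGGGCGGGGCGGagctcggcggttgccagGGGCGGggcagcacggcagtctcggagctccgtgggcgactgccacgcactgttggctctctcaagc
Tmod1: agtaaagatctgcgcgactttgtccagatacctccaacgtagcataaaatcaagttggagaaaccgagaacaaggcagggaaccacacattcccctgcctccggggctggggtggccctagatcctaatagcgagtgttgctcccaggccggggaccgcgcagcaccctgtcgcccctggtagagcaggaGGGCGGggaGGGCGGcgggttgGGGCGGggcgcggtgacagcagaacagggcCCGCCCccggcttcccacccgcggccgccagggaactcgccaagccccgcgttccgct
The *Npy* and *Gng8* windows each hold the letters 1 time and the *Rprml* and *Tmod1* windows 4 times, counting matches that may overlap, and the *Nos1* window holds them 0 times. Of all 32851 promoters of this length, 35.7% hold them. The share of G and C was 68.0%, 58.0%, 66.3% and 66.0% in the order shown, above the median of all promoters, 52.7%. This describes the windows only.

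Depth differed between the libraries and between the sets of cells, and this bears on a rule that asks for genes above 0. Members had a median of 5101, 12044 and 12472 UMIs per cell in mice 1, 2 and 3. Other *Nos1* cells had 3727, 9206.5 and 9038.5. Mouse 1 was the shallowest library, with 29 members, against 184 in mouse 2 and 91 in mouse 3. Whole UMIs were recovered from the deposited values, and to compare cells at 1 depth each cell of at least 3000 UMIs was thinned to 3000, which left out 178 of all cells. Of 2 cell barcodes found in more than 1 library, 0 were of members. A doublet caller marked 10 of all cells, 3 of them members. That is under 0.5% of the cells, so the caller says little.

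Members made up 8.19% of the cells of mouse 1 (29 of 354, 95% exact Clopper-Pearson interval 5.55% to 11.6%), 17.5% in mouse 2 (184 of 1050, 15.3% to 19.96%) and 13.9% in mouse 3 (91 of 656, 11.3% to 16.8%). The mean was 13.2% ± 4.70 (SD, n = 3 mice). Of the *Nos1* cells they made up 21.6%, 32.2% and 25.3%, with a mean of 26.4% ± 5.34 (SD, n = 3). The shares were lower at 1 depth, where fewer genes are above 0. When cells were thinned to 3000 UMIs and the rule was applied again, 102 cells met it, 98 of them members. They made up 3.99%, 6.73% and 3.93% of thinned cells in mice 1, 2 and 3, and 10.8%, 16.8% and 9.84% of thinned *Nos1* cells. The mean shares were 4.88% ± 1.60 of all cells and 12.47% ± 3.77 of *Nos1* cells (SD, n = 3). At 1 depth the share of mouse 1 was thus not below that of mouse 3. The intervals above cover counting error only. The authors' sort and their removal of cells they held to be non-neuronal also set the denominators.

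The rule has thresholds, and cells lay close to them on either side. The number of the 7 genes per *Nos1* cell had no gap at 3, as the plot of genes per cell shows. Among members, 107 had 3 of the 7 genes, 112 had 4, 63 had 5, 19 had 6 and 3 had all 7. Members with 3 of 7 (15, 56 and 36 cells in mice 1, 2 and 3) had *Aldh1a3* at 0.999, 0.814 and 0.889 UMIs per 10000, and *Nos1* cells with 2 of 7 and the same limit on *Cartpt* (35, 83 and 39 cells) had 0.652, 0.421 and 0.247. *Npy* was 1.12, 0.863 and 0.262 inside and 2.02, 0.306 and 0.137 outside, so that mouse 1 had more *Npy* in the cells just outside. The limit on *Cartpt* kept out 12, 65 and 33 *Nos1* cells with 3 or more of the 7 genes. Those cells had *Cartpt* at 30.6, 58.1 and 40.0 UMIs per 10000 and *Rprml* at 4.60, 4.92 and 2.504, while all members had *Rprml* at 1.53, 4.30 and 2.72.

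**Figure D1:**
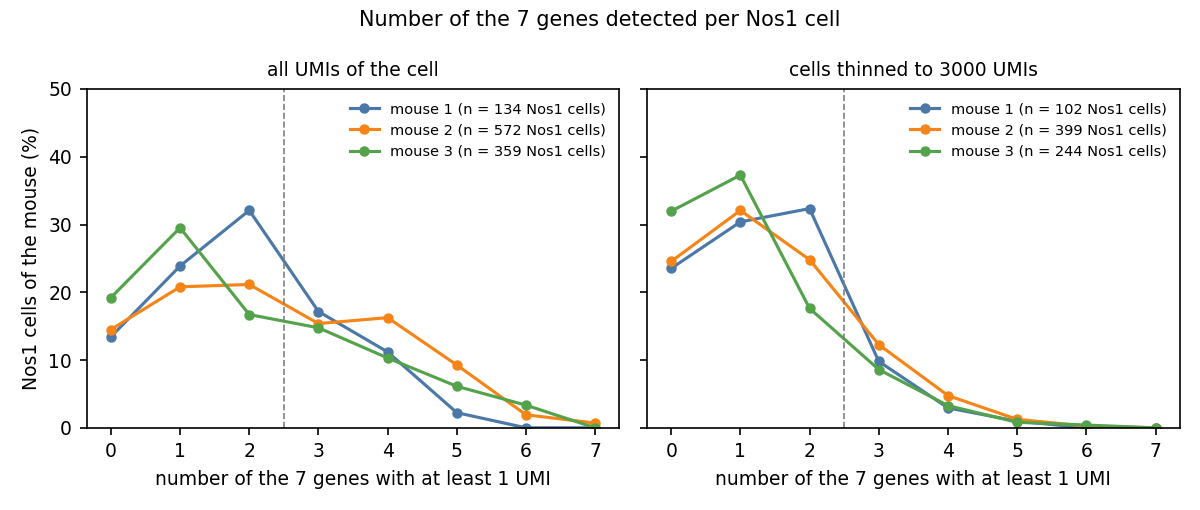
Share of the Nos1 cells of each mouse (y axis, %) by the number of the 7 genes with at least 1 UMI in the cell (x axis), with all UMIs of the cell (left) and after thinning to 3000 UMIs (right); each line is 1 mouse and the dashed line stands before 3 genes, the rule's minimum. The shares fall without a gap across the dashed line, and thinning moves the lines to the left.

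The name of the subset rests on *Npy* and *Aldh1a3*, but most members did not have both. Both genes were above 0 in 96 members (31.6%), *Aldh1a3* without *Npy* in 127 (41.8%), *Npy* without *Aldh1a3* in 50 (16.4%) and neither in 31 (10.2%). Members of mouse 1 had *Npy* more often than *Aldh1a3*, in 62.1% and 51.7% of cells. In mouse 2 the shares were 47.8% for *Npy* and 78.3% for *Aldh1a3*, and in mouse 3 they were 44.0% and 70.3%. The gene found in the largest share of members in every mouse was *Tmod1*, at 79.3%, 94.6% and 89.0%, followed by *Rprml*, at 65.5%, 89.7% and 86.8%. The most frequent combination of genes was *Aldh1a3*, *Gng8*, *Rprml* and *Tmod1* and no other of the 7, in 33 members, followed by *Aldh1a3*, *Rprml* and *Tmod1* in 30. The cells are therefore called members of the rule here and not *Npy* neurons.

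The genes of the rule chose the cells, so their levels are a description and were not tested. *Nos1* was at 10.6, 14.2 and 11.3 UMIs per 10000 in members of mice 1, 2 and 3 and at 10.7, 6.66 and 5.69 in other *Nos1* cells. Both sets were level in mouse 1 and members were higher in mice 2 and 3. *Aldh1a3* was at 1.10, 1.55 and 1.41 in members and at 0.562, 0.340 and 0.221 in other *Nos1* cells. Cells with *Chat* and without *Nos1*, which are cholinergic by these transcripts, had 0.151, 0.0939 and 0.0360. *Npy* was at 1.90, 2.47 and 1.31 in members, 1.30, 0.426 and 0.381 in other *Nos1* cells and 0, 0.0134 and 0.0180 in the *Chat* cells. Members of mouse 3 and other *Nos1* cells of mouse 1 had about the same *Npy*. *Tmod1* was nearly level between mice in members, at 2.39, 2.43 and 2.30, against 1.32, 0.732 and 0.714 in other *Nos1* cells.

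*Gng8* was at 0.980, 0.937 and 1.04 in members and 0.605, 0.374 and 0.277 in other *Nos1* cells. *Rprml* was at 1.53, 4.30 and 2.72 in members and 1.97, 2.31 and 0.987 in other *Nos1* cells, so that in mouse 1 it was lower in members in spite of the rule. *Dok5* was rare, with UMIs in 31.0%, 27.2% and 12.1% of members. The *Chat* cells had median depths of 3342.5, 10219 and 10144 UMIs. They had *Dok5* in 0%, 4.05% and 2.65%, and other *Nos1* cells had it in 1.90%, 3.61% and 4.85%. The *Nos1* cells kept out by the limit on *Cartpt*, which are part of other *Nos1* cells, had it in 8.33%, 16.9% and 12.1%. Those cells were chosen with *Dok5* and *Lmo2* among the 7 genes, so their shares are a description. After thinning to 3000 UMIs *Dok5* was in 23.1%, 10.5% and 2.27% of members and 0%, 1.67% and 2.87% of other *Nos1* cells, so that members of mouse 3 did not have it more often at 1 depth. *Lmo2* was in 17.2%, 26.6% and 39.6% of members, in 3.81%, 5.93% and 6.34% of other *Nos1* cells and in 0%, 13.5% and 7.08% of the *Chat* cells. The share of *Lmo2* in other *Nos1* cells of mice 2 and 3 was below that of the *Chat* cells. In the *Nos1* cells kept out by the limit on *Cartpt* it was 0%, 15.4% and 18.2%. Whether the shares of *Dok5* and *Lmo2* outside the members are background was not tested. After thinning *Lmo2* was in 3.85%, 9.94% and 13.6% of members and 1.19%, 1.67% and 2.46% of other *Nos1* cells. *Cartpt* had UMIs in 169 members in spite of the limit, at a level of 2.33, 1.54 and 1.60, beside 2.42, 2.34 and 0.909 in the *Chat* cells.

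**Figure D2:**
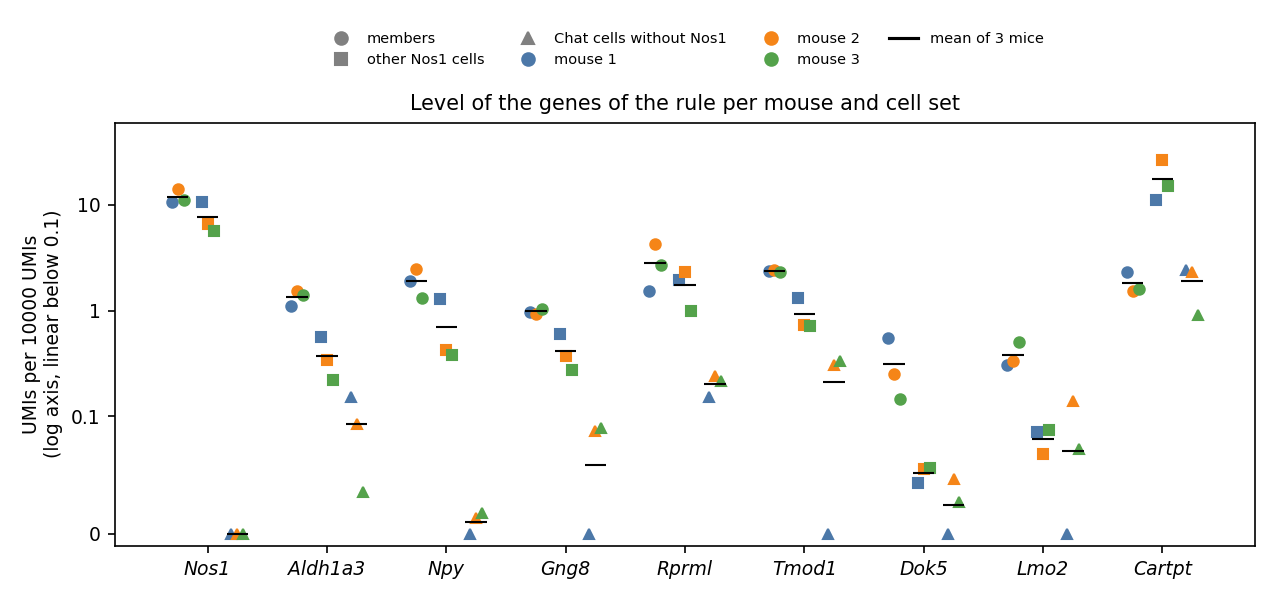
Level of each gene of the rule (x axis) in UMIs per 10000 UMIs (y axis, log above 0.1 and linear below), summed over the cells of 1 mouse and set; shapes are the sets, colours the mice and lines the mean of 3 mice. Members stand above other Nos1 cells of their mouse for each of the 7 genes, except Rprml in mouse 1, and below them for Cartpt.

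Each of the 7 genes was also read against the other 6, in *Nos1* cells of any *Cartpt* level. These values chose the members, and the cells of a mouse share a library, so the shares are a description with no test. *Aldh1a3* was above 0 in 37.5%, 67.6% and 57.3% of *Nos1* cells that had at least 3 of the other 6 genes, and in 23.0%, 19.8% and 12.4% of those with fewer than 2, in mice 1, 2 and 3. *Npy* was in 41.9%, 41.1% and 38.9% of cells with at least 3 of the others and in 34.8%, 11.3% and 12.8% of cells with fewer than 2. *Rprml* was in 56.5%, 87.7% and 80.7% against 51.3%, 44.3% and 29.4%, and *Tmod1* in 60.9%, 86.7% and 81.0% against 40.8%, 38.1% and 37.3%. *Gng8* was in 40.6%, 42.7% and 53.5% against 13.8%, 18.7% and 9.24%. *Dok5* was in 18.4%, 21.7% and 10.7% against 1.96%, 1.46% and 5.0%. *Lmo2* showed no such difference in mouse 1, with 7.69%, 19.8% and 26.8% against 7.55%, 6.31% and 6.04%. Cells with more UMIs have more genes above 0. After thinning to 3000 UMIs *Aldh1a3* was in 40.0%, 46.0% and 40.0% against 16.7%, 15.3% and 12.2%, over 10, 50 and 20 cells with at least 3 of the others. *Npy* was in 40.0%, 22.2% and 25.9% against 25.0%, 17.7% and 10.1% after thinning, a smaller gap than without it in mice 2 and 3. *Rprml* was in 3 of 5 cells in mouse 1 and in 74.2% and 78.6% in mice 2 and 3, against 41.1%, 43.6% and 23.7%. *Tmod1* was in 14.3%, 65.7% and 42.1% against 35.5%, 27.5% and 31.4%, over 7, 35 and 19 cells with at least 3 of the others. For *Tmod1* the order thus turned in mouse 1 and the gap was small in mouse 3. After thinning *Gng8* was in 22.2%, 21.5% and 34.8% against 15.6%, 9.92% and 11.05%, and *Lmo2* in 7.14%, 7.25% and 19.2% against 1.79%, 3.04% and 3.49%. *Dok5* was in 15.4%, 10.4% and 3.12% against 5.17%, 3.04% and 2.91%, with nearly no gap in mouse 3.

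Whether members lay together was asked with genes the rule did not use. Within each mouse the *Nos1* cells were placed by 20 principal components of 2000 variable genes without the 9 genes of the rule, and the 15 nearest neighbours of each cell were read. In mouse 2, members made up 65.4% of the neighbours of members, 23.0% of the neighbours of other *Nos1* cells and 32.2% of all *Nos1* cells. In mouse 3 the shares were 60.6%, 21.5% and 25.3%. In mouse 1 members made up 38.2% of the neighbours of members and 36.3% of those of other *Nos1* cells, both above their share of 21.6% of all *Nos1* cells there, and the neighbours of the 29 members and of other cells were nearly alike. Thinning all cells to 3000 UMIs with the members kept gave 33.1% and 32.7% in mouse 1, 65.2% and 23.7% in mouse 2, and 56.9% and 19.9% in mouse 3. The gap in mice 2 and 3 was about as wide at 1 depth as at the cells' own depths. Members are limited to low *Cartpt* and other *Nos1* cells are not. The neighbours were not read with that limit in both sets, so its part in the gap was not tested.

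**Figure D3:**
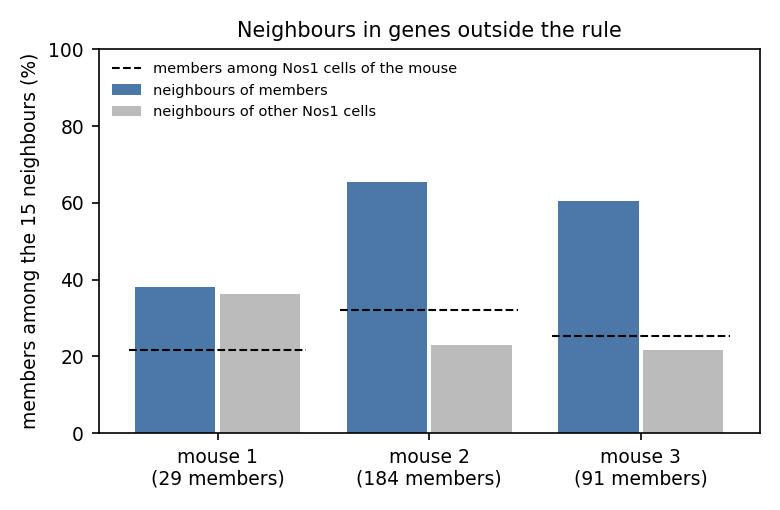
Share of members (y axis, %) among the 15 nearest neighbours of members (blue bars) and of other Nos1 cells (grey bars) in each mouse, from genes outside the rule; dashed lines are the share of members among all Nos1 cells of the mouse. The blue bar is far above the grey bar in mice 2 and 3 (65.4% against 23.0%, 60.6% against 21.5%), and the bars are nearly level in mouse 1. The limit on Cartpt holds for members only.

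Members were then compared with other *Nos1* cells over all genes outside the rule. UMIs were summed per mouse and set and tested with limma, with the mouse as a block, on log2(UMIs per 10000 + 0.1), a scale that understates changes of low genes. Genes were tested where their mean over the sums compared was at least 0.2 UMIs per 10000, so that a low gene could pass this filter through a single set. All log2 differences below are on this scale, as members minus the cells compared, and adjusted p is limma's with Benjamini-Hochberg adjustment over all genes tested. With 3 mice 7073 genes were tested and 1 passed an adjusted p of 0.05 (0.0141%), and 971 (13.7%) had an unadjusted p under 0.05. The gene was *Grp*, the precursor of gastrin-releasing peptide, which was at 0.0612, 0.183 and 0.367 UMIs per 10000 in members of mice 1, 2 and 3 and at 0.605, 2.22 and 3.17 in other *Nos1* cells. It was lower in members of all 3 mice. The log2 difference was −2.66 (SE 0.20, adjusted p = 0.0262). Members are limited to low *Cartpt* and other *Nos1* cells are not. With *Cartpt* below 2.5 in both sets the difference of *Grp* was −1.35, its adjusted p was 0.248, and 0 genes passed, with 774 at an unadjusted p under 0.05.

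The count rose with any 1 mouse left out, and most without mouse 1. Without mouse 1, 1156 of 6949 genes passed (16.6%), 647 higher in members (9.31%) and 509 lower (7.32%). Without mouse 2 the count was 31, and without mouse 3 it was 37. The fit of mice 2 and 3 was chosen after these counts were seen. It has 1 residual degree of freedom, so its p-values rest on the spread that limma pools over genes. The mouse 1 values are given beside it: of the 647 genes, 374 (57.8%) were also higher in members of mouse 1, of the 509 genes 327 (64.2%) were also lower, and of all genes tested 53.4% had the same sign in mouse 1 as in mice 2 and 3. The count of the fit was 563 when cells were thinned to 3000 UMIs with the members kept, which also leaves out shallower cells, and 350 when members were called after thinning, which leaves fewer members. With *Cartpt* below 2.5 in both sets it was 1177. Without the block on mouse it was 266. Under TMM scaling, which sets the sums by the bulk of the genes, it was 1455, of which 43.0% were higher in members, against 56.0% otherwise.

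Among the 647 genes higher in members of mice 2 and 3, *Dpysl3*, which encodes a collapsin response mediator, was at 11.1, 21.3 and 19.7 UMIs per 10000 in members and 8.86, 9.25 and 7.02 in other *Nos1* cells, a log2 difference of 1.34 (SE 0.08, adjusted p = 1.5e-05). The values of members exceeded those of other *Nos1* cells in all 3 mice. *Nrp1*, a receptor for semaphorins and VEGF, was at 0.367, 1.20 and 1.57 in members and 0.562, 0.508 and 0.546 in other *Nos1* cells. It rose by 1.23 (SE 0.11, adjusted p = 7.4e-05) and was lower in members of mouse 1. *Stmn4*, a stathmin of neurons, was at 1.10, 2.14 and 1.89 and 1.32, 0.856 and 0.879, with 1.13 (SE 0.10, adjusted p = 6.8e-05). *Tbx3*, a T-box transcription factor, was at 3.12, 5.78 and 4.59 and 3.24, 2.96 and 2.03, with 1.04 (SE 0.08, adjusted p = 4.6e-05). For *Tbx3* the sets were level in mouse 1 and clearly apart in the other two. *Spry4*, an inhibitor of receptor tyrosine kinase signalling, was at 0.429, 0.485 and 0.404 and 0.367, 0.150 and 0.136. *Unc13c*, which primes synaptic vesicles, rose by 1.10, and *Fst*, which encodes the activin binder follistatin, by 1.06. Both were lower in members of mouse 1. The other genes of the 15 with the largest rise were *Lsp1*, *Airn*, *Tbpl1*, *C130073E24Rik*, *Mtus2*, *Ttr* and *Fam181b*, from 1.06 to 1.29. *Airn* and *Tbpl1* were higher in members of all 3 mice. *March11*, which encodes a membrane-bound ubiquitin ligase, was at 0.0612, 0.379 and 0.358 in members and 0.0432, 0.0948 and 0.0482 in other *Nos1* cells. *March11*, *Spry4*, *Lsp1* and *Fam181b* had a mean under 0.2 in other *Nos1* cells of mice 2 and 3, so they passed the filter only through members, where they had to be higher, and their values are a description only. When members were called after thinning, 8 of these 15 still passed, among them *Dpysl3*, *Nrp1*, *Stmn4* and *Tbx3*, and *Fam181b*, *Fst*, *Lsp1*, *March11*, *Spry4*, *Ttr* and *Unc13c* did not.

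Among the 509 genes lower in members of mice 2 and 3, *Grp* fell by 2.92 on the log2 scale, and its difference was −1.32 with *Cartpt* below 2.5 in both sets. *Sncg*, which encodes gamma-synuclein, was at 3.86, 2.07 and 3.87 in members and 6.42, 11.2 and 11.7 in other *Nos1* cells, a difference of −1.98 (SE 0.14, adjusted p = 3.3e-05), which was −0.47 with *Cartpt* below 2.5 in both sets. *Mt3*, a metallothionein, was at 2.63, 0.910 and 2.01 and 3.78, 3.02 and 5.46, with −1.51 (SE 0.09, adjusted p = 1.5e-05), and −0.56 with the limit in both sets. Both differences were smaller where the limit on *Cartpt* held for both sets. *Sst*, which encodes somatostatin, was at 0.245, 0.0914 and 0.147 and 0.130, 1.43 and 0.742. *Oprk1*, the kappa opioid receptor, was at 0.245, 0.183 and 0.220 and 0.0648, 0.542 and 0.855, with −1.38 (SE 0.15, adjusted p = 1.5e-04). *Bnc2*, a zinc finger factor that marks the other main group of these neurons, was at 0.429, 0.123 and 0.147 and 0.151, 0.303 and 0.638. All 3 of these genes were higher in members of mouse 1 and not lower. *Ntng1*, a membrane-anchored netrin, was at 0.306, 0.238 and 0.578 and 0.756, 0.995 and 1.36 and was lower in members of every mouse, with −1.40 (SE 0.14, adjusted p = 1.3e-04), and −0.57 with the limit on *Cartpt* in both sets. *Gpx3*, *Ndufa4l2*, *Nmu*, *Tagln*, *Pi15*, *Ndufa3*, *Kcnk2* and *Syt6* completed the 15, from −1.56 to −1.15. *Sst*, *Bnc2*, *Gpx3*, *Nmu*, *Pi15* and *Syt6* had a mean under 0.2 in members of mice 2 and 3, so they passed the filter only through other *Nos1* cells, where they had to be higher, and their values are a description only. With *Cartpt* below 2.5 in both sets *Gpx3* was at −0.79 and *Ndufa3* did not pass (adjusted p = 0.0541). The falls of *Sst* (−2.97), *Oprk1* (−1.75), *Bnc2* (−1.68), *Ndufa4l2* (−1.67), *Nmu* (−1.44) and *Pi15* (−1.32) were then larger, and those of the rest of the 15 smaller. When members were called after thinning, 9 of these 15 still passed. *Sst*, at −0.39, *Oprk1*, at −1.74 (adjusted p = 0.121), and *Pi15* did not, and *Bnc2*, *Nmu* and *Syt6* were then too low to test.

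**Figure D4:**
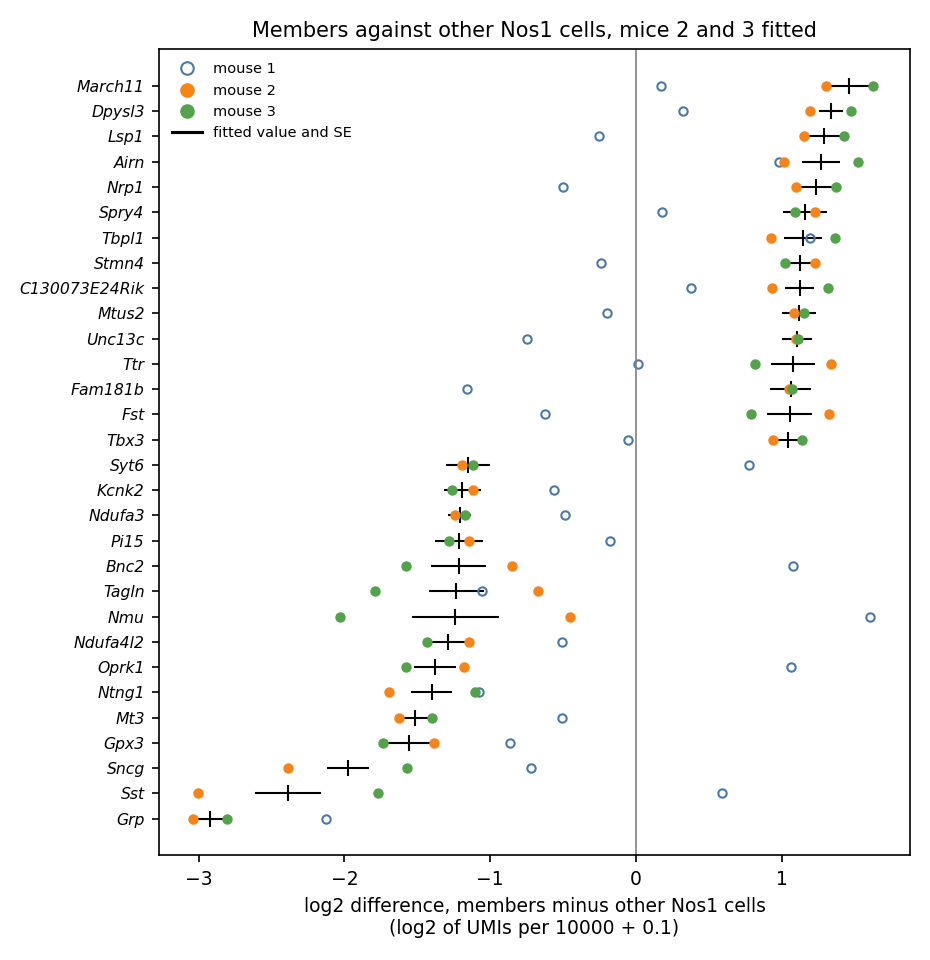
Log2 difference of members minus other Nos1 cells (x axis, on log2 of UMIs per 10000 + 0.1) for the 15 genes with the largest rise and the 15 with the largest fall in the fit of mice 2 and 3 (y axis); filled points are mice 2 and 3, open points mouse 1, which the fit did not use, and bars the fitted value with its SE. The open points of mouse 1 scatter around 0, and 8 of the 15 upper genes and 5 of the 15 lower genes lie on the other side of 0 there.

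Genes of inhibitory transmission outside the rule went both ways against other *Nos1* cells of mice 2 and 3. Of 11 tested, 3 were higher and 3 lower in members, with a median log2 difference of 0.04. Over all genes tested 9.31% were higher and 7.32% lower, with a median of 0.06. The 3 that rose act on the supply of the synthase. *Ass1* and *Asl*, which remake arginine from citrulline, were at 14.3, 18.7 and 15.4 and at 1.71, 1.96 and 1.79 UMIs per 10000 in members. In other *Nos1* cells *Ass1* was at 15.7, 10.3 and 6.85 and *Asl* at 1.25, 1.03 and 0.887. The log2 difference was 1.0 (SE 0.08, adjusted p = 5.5e-05) for *Ass1* and 0.90 (SE 0.09, adjusted p = 1.5e-04) for *Asl*. *Ass1* was slightly lower in members of mouse 1, and *Asl* was higher in members of all 3 mice. *Qdpr*, which regenerates tetrahydrobiopterin, was at 1.96, 2.72 and 1.83 in members and 1.75, 1.55 and 0.979 in other *Nos1* cells, with 0.81 (SE 0.09, adjusted p = 2.0e-04). The enzymes that make tetrahydrobiopterin did not pass, with −0.31 (SE 0.13, adjusted p = 0.140) for *Gch1* and 0.04 (SE 0.14, adjusted p = 0.883) for *Spr*.

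The peptides in the list of inhibitory transmission depended on the limit on *Cartpt*. *Gal*, which encodes galanin, was at 35.8, 43.0 and 50.7 in members and 57.1, 129 and 58.9 in other *Nos1* cells, lower in members with −0.90 (SE 0.22, adjusted p = 0.0184). With *Cartpt* below 2.5 in both sets its direction turned, to 0.89, past the threshold. *Vip* was at 3.98, 10.2 and 6.13 in members and 5.42, 6.64 and 7.95 in other *Nos1* cells. It did not pass, with 0.12 (SE 0.17, adjusted p = 0.680), and with the limit in both sets it was 0.75, past the threshold. *Penk*, the precursor of enkephalins, was at 1.04, 1.16 and 0.486 and 1.47, 1.39 and 1.91, with −1.01 (SE 0.25, adjusted p = 0.0202), and −0.46 with the limit in both sets. Of mice 2 and 3, the fall of *Gal* was mostly that of mouse 2 and the fall of *Penk* mostly that of mouse 3. Genes of the NPY receptors were too low to test. *Npy1r* was at 0.122, 0.0411 and 0.0917 in members and 0.108, 0.153 and 0.229 in other *Nos1* cells.

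Genes of cholinergic and excitatory neurons were lower in members of mice 2 and 3. Of 12 tested, 10 fell and 0 rose, with a median of −0.88, beside 7.32% lower and 9.31% higher over all genes tested. *Penk* stands in this list and in that of inhibitory transmission, and is counted among the falls of both. *Slc18a3*, which loads acetylcholine into vesicles, was at 0.735, 0.338 and 0.459 in members and 0.497, 0.756 and 1.18 in other *Nos1* cells, with −1.08 (SE 0.12, adjusted p = 2.0e-04). *Slc5a7*, which takes up choline, was at 1.22, 0.841 and 1.16 and 1.64, 1.17 and 1.81, with −0.52 (SE 0.10, adjusted p = 0.00516). *Gfra2*, the receptor of neurturin, was at 0.612, 0.347 and 0.330 and 0.627, 0.650 and 0.738, with −0.85 (SE 0.13, adjusted p = 0.00120). *Tac1*, the precursor of substance P, was at 2.45, 1.91 and 0.881 and 1.40, 2.02 and 2.84, with −0.83 (SE 0.25, adjusted p = 0.0426). Mouse 1 differed for *Slc18a3* and *Tac1*, which were higher in its members. For *Tac1* the sets were nearly level in mouse 2, and the fall was mostly that of mouse 3. Of 7 genes of sensory neurons and interneurons tested, 5 fell and 0 rose, with a median of −1.03. A gene low in members, as *Sst* and *Nmu* were, could pass the filter only through other *Nos1* cells, where it had to be higher. The counts and medians of such short lists are therefore a description only. Other *Nos1* cells needed 1 UMI of *Nos1*, and 275 of 388 in mouse 2 and 175 of 268 in mouse 3 had 2 or more. With *Nos1* at 2 UMIs or more in both sets, *Sst* was at −1.79 (from −2.39), *Oprk1* −1.17 (−1.38) and *Ndufa4l2* −1.12 (−1.29). *Ntng1* was at −1.75 (−1.40), and *Bnc2* and *Nmu* were too low to test. The part of cells with 1 UMI of *Nos1* in these falls was not tested further. *Calcb*, which encodes a calcitonin gene-related peptide, was at 0.796, 0.247 and 1.73 and 0.929, 0.935 and 2.47, with −1.03 (SE 0.19, adjusted p = 0.00474). Of the other *Nos1* cells, 34 had UMIs of both *Col25a1* and *Dpp10*, and of the members 9 had.

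Transcription factors of enteric neurons were split, with 8 of 36 higher, 6 lower and a median of 0.02 in mice 2 and 3, beside 9.31% higher and 7.32% lower over all genes tested. *Etv1*, an ETS factor that marks one main group of these neurons, was at 8.39, 8.76 and 7.95 in members and 9.23, 4.70 and 3.80 in other *Nos1* cells, with 0.96 (SE 0.08, adjusted p = 4.6e-05). It was lower in members of mouse 1. *Klf7* was at 2.88, 2.87 and 2.79 and 3.65, 1.77 and 1.58, with 0.73 (SE 0.09, adjusted p = 2.9e-04). On the other side, *Casz1*, a zinc finger factor, was at 0.551, 0.224 and 0.459 and 0.432, 0.424 and 1.10, with −0.90 (SE 0.14, adjusted p = 0.00149). *Ebf1* had −0.83 (SE 0.11, adjusted p = 6.5e-04), and −0.20 (adjusted p = 0.367) with the limit on *Cartpt* in both sets.

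The partners of the rule's genes were read from lists of their pathways in mice 2 and 3. For *Dok5*, of 17 genes of Ret and Dok signalling tested 5 rose and 1, *Gfra2*, fell, with a median of 0.11. *Ret*, the receptor of GDNF-family ligands, was at 1.59, 2.42 and 2.77 in members and 1.75, 1.72 and 1.91 in other *Nos1* cells, with 0.49 (SE 0.08, adjusted p = 0.00281). When members were called after thinning its direction turned, to −0.13 (adjusted p = 0.876). *Gfra1*, the co-receptor for GDNF, was at 5.08, 2.86 and 2.72 and 3.33, 2.11 and 1.77, with 0.51 (SE 0.09, adjusted p = 0.00285). *Gfra1* was higher in members of all 3 mice. For *Gng8*, of 19 subunits of G proteins tested 9 rose and 1 fell, with a median of 0.32. *Gnai2*, an inhibitory alpha subunit, had 0.63 (SE 0.08, adjusted p = 3.2e-04), and *Gng5*, a gamma subunit, had −0.63 (SE 0.08, adjusted p = 3.9e-04), and −0.26 with the limit on *Cartpt* in both sets.

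For *Aldh1a3*, of 12 genes of retinoic acid metabolism and response tested 3 rose and 4 fell, with a median of 0.01. *Dhrs3*, which turns retinaldehyde back to retinol, fell, with −0.57 (SE 0.13, adjusted p = 0.0149), and the receptor *Rarb* had 0.09 (SE 0.13, adjusted p = 0.687). The other enzymes of this step, *Aldh1a1* and *Aldh1a2*, were too low to test, at most 0.0612 UMIs per 10000 in members of any mouse. For *Tmod1*, of 18 genes of the spectrin and actin skeleton 3 rose and 2 fell, with a median of 0.19. *Ank2*, the scaffold ankyrin-B, was at 19.97, 19.4 and 17.1 and 14.6, 10.2 and 10.0, higher in members of all 3 mice, with 0.84 (SE 0.07, adjusted p = 6.3e-05). For *Lmo2*, of 10 partners tested *Tcf4* rose, with 0.56 (SE 0.07, adjusted p = 4.5e-04) and 0.29 with the limit on *Cartpt* in both sets, and *Lmo4* fell, with −0.62 (SE 0.10, adjusted p = 0.00167). Of 19 genes of peptide processing, 2 rose and 6 fell, with a median of −0.16. Of 19 potassium channel genes 2 rose and 2 fell, and of 42 genes of adhesion and guidance 6 rose and 7 fell. These counts describe the lists beside the 16.6% of all genes that passed.

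Markers of other cell types were read in the same sums, and the counts of markers that rose or fell in mice 2 and 3 stand beside 9.31% higher and 7.32% lower over all genes tested. The 20 pan-neuronal markers summed to 140, 128 and 124 UMIs per 10000 in members of mice 1, 2 and 3 and to 140, 112 and 113 in other *Nos1* cells, and none of them was at 0 in either set. In mice 2 and 3, 7 of them rose and 2, *Prph* and *Nefl*, fell. With *Cartpt* below 2.5 in both sets the difference of *Prph* was −0.40, and that of *Nefl* turned to 0.25 (adjusted p = 0.282). The 15 glial markers summed to 40.9, 51.2 and 34.1 in members and 41.3, 60.6 and 43.6 in other *Nos1* cells, and 5 of 13 tested fell. The 10 smooth muscle markers summed to 21.0, 17.7 and 6.85 in members and 39.3, 21.8 and 16.9 in other *Nos1* cells, and 7 of 10 fell. The 8 fibroblast markers summed to 6.74, 3.76 and 2.14 in members and 12.97, 5.09 and 3.67 in other *Nos1* cells, and 3 of 5 tested fell. The 10 cell cycle genes summed to 3.0, 0.901 and 0.954 in members and 4.58, 1.64 and 1.74 in other *Nos1* cells, and 1 of 2 tested fell. The sums of glial, smooth muscle and fibroblast markers and of cell cycle genes were thus lower in members of all 3 mice, for glial markers by little in mouse 1. The part of glial markers, fibroblast markers and cell cycle genes in the other differences was not tested, and that of smooth muscle markers was tested only by leaving out the 123 cells with over 1% of their UMIs in these markers, 9 of them members. *Grp* and *Mt3* then passed in the fit of 3 mice against other *Nos1* cells. In the fit against all other cells, described next, leaving these cells out ended the call of 4 of the 30 genes named there. All 4 were among the genes lower in members. Mitochondrial genes took 2.52, 3.15 and 3.30% of UMIs in members and 2.65, 2.92 and 3.27% in other *Nos1* cells.

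Against all other cells, which for the most part are cells without *Nos1*, the 3 mice gave more calls. Of 7163 genes 93 passed (1.3%), 67 higher in members (0.935%) and 26 lower (0.363%), and 1124 had an unadjusted p under 0.05. Without mouse 1 the count was 878, without mouse 2 it was 46 and without mouse 3 it was 139. Under TMM scaling 101 passed, 57.4% of them higher in members, against 72.0% otherwise. Members called after thinning to 3000 UMIs gave 8 genes, and the fit with no block on mouse gave 0, with 457 at an unadjusted p under 0.05. This comparison does not set members apart from other nitrergic cells, so the value of other *Nos1* cells is given beside the genes described that were also tested against them.

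*Ass1*, *Asl* and *Qdpr* were among the 67, and *Gch1* and *Spr* did not pass (adjusted p = 0.961 and 0.880). *Ass1* was at 14.3, 18.7 and 15.4 UMIs per 10000 in members of mice 1, 2 and 3, at 7.13, 5.84 and 4.07 in all other cells, and at 15.7, 10.3 and 6.85 in other *Nos1* cells. The log2 difference from all other cells was 1.52 (SE 0.16, adjusted p = 0.0213). *Qdpr* was at 1.02, 1.08 and 0.780 in all other cells, with 1.09 (SE 0.11, adjusted p = 0.0173), and *Asl* at 0.822, 0.919 and 0.830, with 1.0 (SE 0.09, adjusted p = 0.0161). Members exceeded all other cells in every mouse for these 3 genes. Other *Nos1* cells had *Qdpr* at 1.75, 1.55 and 0.979 and *Asl* at 1.25, 1.03 and 0.887. *Etv1* was at 8.39, 8.76 and 7.95 in members, 4.07, 2.84 and 2.48 in all other cells and 9.23, 4.70 and 3.80 in other *Nos1* cells, with 1.42 (SE 0.13, adjusted p = 0.0161). Members had more *Etv1* than all other cells in every mouse, as the rule for naming genes asks.

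*Kcnq3*, a channel of the M current, was at 3.55, 2.86 and 2.73 in members, 1.53, 1.37 and 1.14 in all other cells and 2.57, 1.72 and 1.61 in other *Nos1* cells, with 1.12 (SE 0.09, adjusted p = 0.0161). *Ank2* was at 19.97, 19.4 and 17.1 in members, 8.78, 7.67 and 7.94 in all other cells and 14.6, 10.2 and 10.0 in other *Nos1* cells, with 1.20 (SE 0.07, adjusted p = 0.00652). *Celf4*, an RNA-binding protein of neurons, was at 14.03, 10.6 and 10.2 in members, 8.07, 4.15 and 4.28 in all other cells and 13.5, 5.19 and 5.36 in other *Nos1* cells, with 1.12 (SE 0.11, adjusted p = 0.0174). Members exceeded all other cells in every mouse for these 3 genes, as the rule for naming genes asks. In mouse 1 *Celf4* was nearly as high in other *Nos1* cells as in members. *Dpysl3* was at 11.1, 21.3 and 19.7 in members, 5.59, 7.91 and 6.47 in all other cells and 8.86, 9.25 and 7.02 in other *Nos1* cells, with 1.33 (SE 0.12, adjusted p = 0.0161). *Enpp1*, an enzyme that splits extracellular nucleotides, was at 0.980, 1.03 and 0.807 in members, 0.536, 0.327 and 0.257 in all other cells and 1.06, 0.555 and 0.449 in other *Nos1* cells, with 1.17 (SE 0.17, adjusted p = 0.0360). Its call ended, among others, without mouse 2 (adjusted p = 0.102), with at least 4 of the 7 genes (0.130) and when thinned with the members kept (0.0530). *Dach1*, a transcription cofactor, was at 0.980, 0.928 and 1.08 in members, 0.286, 0.404 and 0.303 in all other cells and 0.670, 0.521 and 0.401 in other *Nos1* cells, with 1.36 (SE 0.15, adjusted p = 0.0226). *C130073E24Rik*, *Thsd7b*, *Fam155a*, *Bves*, *Tbpl1* and *Airn* completed the 15 with the largest rise, from 1.11 for *Airn* to 1.54 for *C130073E24Rik*. *Ret*, *Gfra1* and *Elavl4* also passed, at 0.74, 0.73 and 0.72.

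*Grp* had the largest fall of the 26 genes lower in members, −2.58 (SE 0.13, adjusted p = 0.00417), from 0.770, 1.74 and 2.74 UMIs per 10000 in all other cells. With no limit on *Cartpt* in the rule it was −1.43 and did not pass (adjusted p = 0.0991). *Rbfox1*, a splicing factor of neurons, was at 0.0612, 0.146 and 0.312 in members, 0.580, 0.923 and 1.16 in all other cells and 0.367, 0.408 and 0.722 in other *Nos1* cells. *Gpc6*, a glypican of the cell surface, was at 0.184, 0.210 and 0.358 in members, 0.726, 0.777 and 1.30 in all other cells and 0.411, 0.437 and 0.891 in other *Nos1* cells, with −1.55 (SE 0.13, adjusted p = 0.0161). Members were below all other cells in every mouse for these 3 genes, as the rule for naming genes asks. *Cbln2*, a secreted organizer of synapses, was at 0.184, 0.0229 and 0.0826 in members and 0.910, 0.190 and 0.385 in all other cells. *Cacna1e*, an R-type calcium channel, was at 0.245, 0.0914 and 0.312 in members, 0.719, 0.524 and 0.765 in all other cells and 0.454, 0.342 and 0.610 in other *Nos1* cells, with −1.34 (SE 0.17, adjusted p = 0.0292). *Gfra2* was at 0.612, 0.347 and 0.330 in members, 1.01, 0.900 and 0.898 in all other cells and 0.627, 0.650 and 0.738 in other *Nos1* cells, with −1.01 (SE 0.16, adjusted p = 0.0444). The call of *Gfra2* ended, among others, with doublets left out, without mouse 2 and when cells were thinned with the members kept. *Cntn5*, *Pi15*, *Ndufa4l2*, *Pcdh10*, *Serpini1*, *Snhg11*, *Ntng1*, *Myl1* and *Mt3* completed the 15 with the largest fall, from −1.67 for *Cntn5* to −1.05 for *Mt3*. *Rbfox1*, *Cbln2*, *Cntn5* and *Pi15* had a mean under 0.2 in members and passed the filter only through all other cells, so their values are a description only. With no limit on *Cartpt*, *Cntn5* (−1.40), *Ntng1* (−0.32) and *Mt3* (−0.41) did not pass either. Of the 12 genes of cholinergic and excitatory neurons tested here, *Slc5a7*, *Calb2*, *Ndufa4l2* and *Gfra2* fell and 0 rose, with a median of −1.09. Over all genes tested 0.363% were lower, with a median of 0.01.

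**Figure D5:**
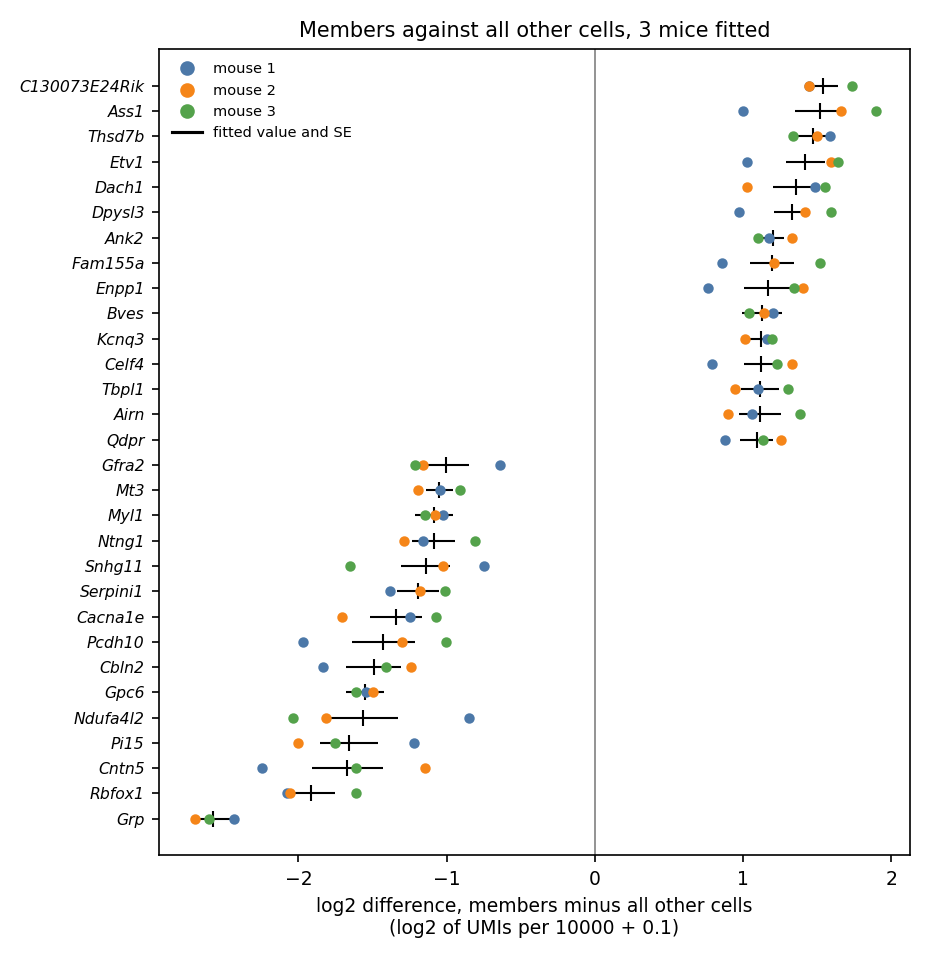
Log2 difference of members minus all other cells (x axis, on log2 of UMIs per 10000 + 0.1) for the 15 genes with the largest rise and the 15 with the largest fall among the 93 that passed (y axis); points are the mice and bars the fitted value with its SE over 3 mice. All points of the upper 15 genes lie above 0 and all points of the lower 15 below 0, as the rule for naming genes asks.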

How the data were processed

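Single cells were sequenced with 10x Genomics chemistry, 1 library per mouse, in 3 mice of 1 group. The authors counted reads with Cell Ranger (version not given in the sources used here) on mm10, kept cells of 1500 to 5000 genes below a limit on mitochondrial reads, removed genes they held to be confounding and cells they held to be non-neuronal, and deposited each value as the natural log (ln) of 1 plus UMIs per 10000. The table lists 33353 genes in 2060 cells. Whole UMIs were recovered from it, with 100% of 6435281 values above 0 and 100% of cell totals (2140 to 24945 UMIs) whole within 1e-06. Because the deposited unit is a log, no count model was used.

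The members, the gene lists and the tests were chosen with earlier results of these data known. The 9 genes of the rule were left out of every test. UMIs summed per mouse and set were scaled to 10000, genes with a mean of at least 0.2 were kept, and log2(value + 0.1) was tested with limma 3.58.1 (trended eBayes, mouse as a block, Benjamini-Hochberg adjustment, threshold 0.05) in R 4.3.3. The same mouse gives both sets, so the mouse pairs them. The cells of a set are not replicates, and with 3 mice p-values rest on the spread between mice. Fits of mice 2 and 3 have 1 residual degree of freedom, under the alternatives too, and rest on the spread that limma pools over genes. Their small p-values do not measure how well the mice agree. Genes outside the rule that vary together with its genes, or with depth, enter the difference through the choice of cells. On simulated data with folds of 2 and 4 in 100 genes each, 78 and 98 were recovered with 3 mice in either comparison. There 0 unchanged genes were called. These counts describe that simulation only. The fit of mice 2 and 3 was not tested in this way, and how often changes in the deposited data are missed was not tested. The fit of mice 2 and 3 and the alternatives with *Cartpt* below 2.5 in both sets, with *Nos1* at 2 UMIs or more in mice 2 and 3, and without cells rich in smooth muscle markers were chosen after the data were seen. For each comparison the text names the 15 genes with the largest rise and fall among those past the threshold that moved alike in every mouse fitted, and from each list up to 4 genes past the threshold and its best known members. Scrublet (scanpy 1.11.5, expected rate 6%) was used to find doublets. Of the 9 rule genes, 6 had a RefSeq promoter. The precision of a share is given by its 95% exact binomial interval. The values of 1 gene of the fixed lists are not reported here.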

Additional observations from a re-analysis of the deposited data

How the results depend on the processing

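The mean share of members was 13.2% of all cells and 26.4% of *Nos1* cells. It was 4.88% and 12.47% when cells were called after thinning to 3000 UMIs, 21.1% and 43.6% with at least 2 of the 7 genes, 8.18% and 16.0% with at least 4, and 18.1% and 36.2% with no limit on *Cartpt*. The 1 gene called against other *Nos1* cells became 0 with a pseudocount of 0.5, with no filter on low values, with each cell given the same weight, with members called after thinning, with no limit on *Cartpt* and with *Cartpt* below 2.5 in both sets, and 2 without cells rich in smooth muscle markers. Leaving out 1 mouse gave 31 to 1156. Without the block on mouse, which drops the pairing of the sets, it was 0. Against all other cells the 93 genes became 140 at a minimum of 0.5, 0 with no filter, 33 when thinned with the members kept, 8 when called after thinning, 153 and 28 with at least 2 and at least 4 of the 7 genes, 275 with no limit on *Cartpt*, and 0 without the block on mouse. Leaving out 1 mouse gave 46 to 878. In the fit of mice 2 and 3 the 1156 genes became 563 when thinned, 350 when called after thinning, 2052 with *Nos1* at 2 UMIs or more, and 266 without the block on mouse. The cause of these changes was not tested. No gene named for its largest rise or fall changed direction under the alternatives in which it was tested. Several were too low to test under some of these, and the rule for naming genes, which asks for like moves in every mouse, fixes their direction when a mouse is left out. Of the genes named from lists that passed in mice 2 and 3, *Gal* and *Nefl* turned with *Cartpt* below 2.5 in both sets, to 0.89 and 0.25, and *Ret* when called after thinning, to −0.13. Of the 30 genes named against all other cells, 385 values across the alternatives kept their side of the threshold and 146 did not. For the 30 of mice 2 and 3 the numbers were 307 and 17, and for *Grp* against other *Nos1* cells 12 and 7.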
